A study of Mus musculus with 17 samples.

Results

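Expression of 10 immediate-early genes was examined in RNA-sequencing libraries of apical left ventricle taken 3 weeks after pressure overload. The genes were Fos, Fosb, Jun, Junb, Egr1, Atf3, Nr4a1, Ier2, Btg2 and Zfp36, taken by symbol from the 21798 genes of the deposited matrix, and all 10 were among the 16218 genes tested. The 17 libraries came from young adult male C57Bl6/J mice that underwent transverse aortic constriction (TAC), in which the aortic arch is narrowed by a suture, or Sham surgery, the same operation without the ligature. Mice then received by repeated oral gavage, starting 1 week after surgery, either 29P at 50 μg/kg, an RGD-mimetic compound directed at integrin αvβ3, or saline as vehicle (Veh). There were 5 libraries from Sham Veh mice, 3 from TAC Veh, 3 from Sham 29P and 6 from TAC 29P, and they are named here by the S number of their label. Before deposit the authors removed a further TAC Veh library because it clustered with Sham. The aim of the comparisons was to ask how the genes differed with surgery, with 29P and with both. Levels are given in CPM, the reads of a gene scaled to the size of its library, and differences on the log2 scale, so that a difference of 1 means that the level is doubled. A gene was called higher or lower at an unadjusted limma p of 0.05 or less, which is the threshold meant below. The p-values set a difference between groups against the spread between these libraries.

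Immediate-early genes are transcribed within minutes of a stimulus without the need for new protein, and their mRNAs are short-lived. Growth factor, stretch and stress signals reach their promoters through MAP kinases, serum response factor and its cofactors, and CREB-family factors that bind cyclic AMP response elements. In the heart they are known as an early transcriptional response to pressure overload. Fos, Fosb, Jun, Junb and Atf3 encode basic leucine zipper proteins that form AP-1 and related dimers. Egr1 encodes a zinc finger factor and Nr4a1 an orphan nuclear receptor, while Ier2, Btg2 and Zfp36 encode, in turn, a nuclear regulator, an anti-proliferative cofactor of mRNA deadenylation and an RNA-binding protein that hastens decay of AU-rich mRNAs.

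Promoter sequences from RefSeq (GRCm38.p6) were matched by symbol for 8 of the 10 genes: Fos, Fosb, Jun, Junb, Atf3, Nr4a1, Btg2 and Zfp36. The 250 bases before the RefSeq start are shown for Fos (chr12:85473640-85473889, plus strand) and Btg2 (chr1:134079156-134079405, minus strand), the pair whose levels moved most closely together, for Nr4a1, with the most half-sites (chr15:101266596-101266845, plus strand), and for Atf3 (chr1:191183334-191183583, minus strand), the gene whose levels stood apart. For Nr4a1 and Atf3 this start lies inside the gene's interval in the matrix. Each runs 5′ to 3′ along the gene's strand, and capitals mark matches on either strand to TGACG, the half-site of the cyclic AMP response element, which reads CGTCA on the opposite strand, to the full element TGACGTCA, to TATAAA or to the EGR motif GCGNGGGCG.
Fos: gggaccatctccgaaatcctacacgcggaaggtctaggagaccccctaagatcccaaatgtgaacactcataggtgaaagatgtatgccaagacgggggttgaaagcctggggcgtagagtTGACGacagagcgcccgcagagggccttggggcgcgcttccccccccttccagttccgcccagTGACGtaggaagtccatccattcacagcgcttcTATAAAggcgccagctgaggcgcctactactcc
Btg2: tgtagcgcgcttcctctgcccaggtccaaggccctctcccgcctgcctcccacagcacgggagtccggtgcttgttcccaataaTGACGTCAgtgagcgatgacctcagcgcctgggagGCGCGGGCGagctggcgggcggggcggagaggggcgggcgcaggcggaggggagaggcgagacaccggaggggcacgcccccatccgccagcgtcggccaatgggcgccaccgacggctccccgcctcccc
Nr4a1: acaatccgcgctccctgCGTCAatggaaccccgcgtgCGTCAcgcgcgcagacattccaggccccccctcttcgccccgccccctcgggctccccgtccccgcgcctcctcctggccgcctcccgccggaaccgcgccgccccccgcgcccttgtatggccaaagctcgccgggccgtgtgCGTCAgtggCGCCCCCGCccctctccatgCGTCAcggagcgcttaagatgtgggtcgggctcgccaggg
Atf3: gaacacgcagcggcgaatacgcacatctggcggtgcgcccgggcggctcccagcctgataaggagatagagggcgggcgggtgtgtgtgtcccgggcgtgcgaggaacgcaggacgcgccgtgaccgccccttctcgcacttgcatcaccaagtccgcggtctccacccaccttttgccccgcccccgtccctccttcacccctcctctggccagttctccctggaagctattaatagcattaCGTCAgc

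The half-site TGACG was present in 6 of the 8 promoters (Fos, Fosb, Junb, Atf3, Nr4a1 and Btg2) and in 17.8% of the 32851 mouse promoters of the same length. TGACG was added to the motifs after the data were seen, and no enrichment was tested. The full palindrome TGACGTCA, which contains a half-site on each strand, occurred only in Btg2 among the 8, and in 1.55% of all promoters. GCGNGGGCG was found in Btg2, Fosb, Nr4a1 and Zfp36, against 4.7% of all promoters. A CArG box, the site of serum response factor, was found in Zfp36 (1.47% of all promoters), and TATAAA in Fos (12.4%). The AP-1 motif TGANTCA was found in none of the 8 promoters and in 6.75% of all. These matches describe letters in a window and are not evidence of binding.

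Depth, read from the steps between low values, was 14.2 to 23.8 M reads per library. The running numbers in the library labels fall into 4 separate runs, called A to D here, which the labels do not call batches. Run A held 9 libraries (S1 to S6, S8, S9 and S11), run B S12 to S14, run C S15 and S16, and run D S18 to S20. Run A contained 5 of the 6 TAC 29P libraries but 1 of the 3 TAC Veh libraries, so that run and group were partly aligned. Cardiomyocyte markers summed to 33098 to 50235 CPM across the libraries. The atrial markers Sln and Myl7 were at 162 to 441 and 335 to 895 CPM in S18, S19 and S20, and at no more than 0.627 and 1.003 CPM in the other 14 libraries, although all were labelled left ventricle. The differences of the genes named below and the counts of the lists were also computed without S18 to S20.

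In mm10, as the matrix gives them, the genes lie at chr12:85473890-85477274 (Fos), chr7:19302696-19310052 (Fosb), chr4:95049034-95052223 (Jun), chr8:84976910-84978719 (Junb), chr1:191170296-191218040 (Atf3), chr15:101254269-101274796 (Nr4a1), chr8:84661331-84662855 (Ier2), chr1:134075170-134079121 (Btg2) and chr7:28376784-28380254 (Zfp36), with Egr1 on chromosome 18, and all are protein-coding. Junb and Ier2 share chromosome 8, Fosb and Zfp36 chromosome 7, and Atf3 and Btg2 chromosome 1. In GENCODE vM21 Jun overlaps Junos and Junb overlaps Prdx2 on the opposite strand, as Atf3 does Gm24748 and Zfp36 does Gm44710, and the strand setting of the counting is not given in the sources used here, so reads of the overlap cannot be told apart. Junb starts at 84974484 in vM21 and at 84976910 in the matrix, so that its overlap and its exon length may differ in the annotation that was counted.

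Per kilobase of exon in GENCODE vM21, Btg2 was the most abundant of the 10 genes, with a median of 29.7 CPM per kb over the 17 libraries. Jun (24.3), Egr1 (17.1) and Ier2 (15.8) followed, then Junb (9.94), Zfp36 (8.51), Nr4a1 (6.12), Fos (3.61) and Atf3 (3.33), and Fosb was lowest at 0.231. The ranges of neighbours in this order overlapped across libraries, for example 12.9 to 84.4 CPM per kb for Btg2 and 11.8 to 53.4 for Jun. Fosb, at about 6 reads in its lowest library and 29 in the median one, carried the largest counting error. In bulk tissue, fewer cells of a type and less RNA per cell cannot be told apart.

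The 10 genes varied more between mice of the same group than most genes. Residual standard deviations of log2 CPM within groups had a median of 0.79 for the 10 genes and 0.31 for all genes tested. Atf3 was the most variable, at 1.70, followed by Fosb (1.30), Fos (1.26) and Egr1 (1.26), all more variable than 95.7% to 96.2% of genes. Jun (0.53) and Zfp36 (0.52) were the least variable of the 10, and still exceeded 78.2% and 77.3% of genes. From the lowest to the highest of the 17 libraries, Atf3 spanned a 24.6-fold range, Fosb 17.5-fold, Egr1 12.6-fold and Fos 11.9-fold, against 3.59-fold for Zfp36.

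**Figure D1:**
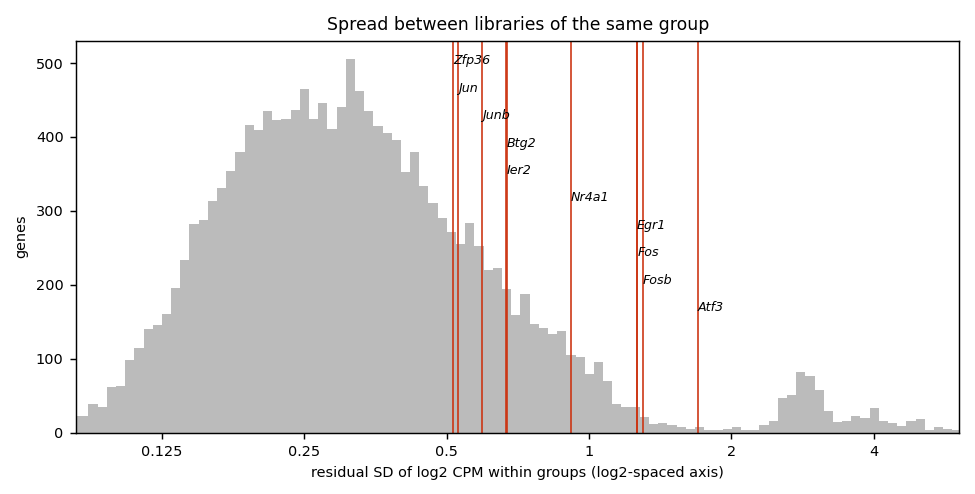
Residual standard deviation of log2 CPM within groups (x axis, log2-spaced) for all 16218 genes tested (grey histogram, y axis number of genes), with the 10 immediate-early genes as red lines. The 10 lines lie between 0.52 (Zfp36) and 1.70 (Atf3), to the right of the median of all genes at 0.31.

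Among the AP-1 genes, Junb was higher after TAC. Its level was 16.7, 15.6, 25.2, 7.95 and 14.2 CPM in Sham Veh (S5, S6, S13, S19 and S20), 22.9, 7.26 and 10.2 in Sham 29P (S4, S14 and S15), and 27.3, 41.9 and 20.2 in TAC Veh (S2, S12 and S16). In TAC 29P it ran from 15.7 to 43.0 CPM with a median of 27.6. Both TAC groups were shifted upward but overlapped Sham: 6 of 9 TAC libraries lay above all 8 Sham libraries. Of all genes tested, 9.74% had TAC and Sham libraries that did not overlap, and none of the 10 immediate-early genes did.

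In TAC Veh against Sham Veh, Junb rose by 0.93 (standard error, SE, 0.38, limma adjusted p = 0.0789), past the threshold before adjustment, with an exact two-sided permutation p of 0.0714, where 0.0179 is the smallest possible. In TAC 29P against Sham 29P it rose by 1.18 (SE 0.37, limma adjusted p = 0.0259, exact two-sided permutation p = 0.0238), and over both treatments together by 1.05 (SE 0.27, limma adjusted p = 0.00406, exact permutation p = 0.00247). It was higher in TAC than in Sham in each of the 4 runs, by 0.54 in run A, 1.63 in B, 0.98 in C and 1.54 in D. Runs B, C and D held 1 TAC library each, beside 2, 1 and 2 Sham libraries. Differences inside these runs, here and for the genes below, thus rest on single TAC libraries. Within run A alone, with 6 TAC and 3 Sham libraries, the exact permutation p was 0.143, where 0.0119 is the smallest possible. The difference in Veh mice was 0.65 without S12, 0.70 without S19 and 0.60 without S18 to S20, none of them past the threshold. The difference in 29P mice was 0.82 without S14, also not past it, and 1.14 without S18 to S20, past it. In run A, the only run with both 29P groups, S4 of Sham 29P (22.9 CPM) lay within the TAC 29P range. The pooled difference stayed past the threshold in all 28 alternatives, between 0.70 and 1.29, and was 0.87 without S18 to S20.

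Jun, the partner of Fos in classical AP-1, rose in the pooled comparison. Its level was 64.1, 74.7, 121, 37.6 and 45.1 CPM in Sham Veh, 91.6, 55.2 and 48.3 in Sham 29P, 69.8, 170 and 77.9 in TAC Veh, and 74.2 to 120 (median 88.4) in TAC 29P, in the same library order. No TAC library was below 69.8 CPM, and 5 of 8 Sham libraries were. The difference of all TAC from all Sham was 0.59 (SE 0.24, limma adjusted p = 0.0427). It was 0.39 without S12, 0.50 without S15 and 0.35 without S18 to S20, none of them past the threshold. Within runs it was positive in all 4, but only 0.14 in run A (exact permutation p = 0.488).

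Fos and Fosb did not pass the threshold with surgery. Fos was at 8.50, 24.0, 26.1, 2.73 and 4.10 CPM in Sham Veh, 13.6, 12.6 and 3.34 in Sham 29P, 3.29, 32.5 and 8.53 in TAC Veh, and 4.31 to 22.6 (median 7.84) in TAC 29P. Each group thus held both low and high libraries, and the spread within TAC Veh (9.86-fold) was wider than the differences between group means. The pooled difference for Fos was 0.09 (SE 0.56) and for Fosb −0.18 (SE 0.59), neither past the threshold in limma or under any of the alternatives run. In run A, TAC libraries had less Fos than Sham libraries, by a log2 difference of −1.14 (exact permutation p = 0.0714), whereas the difference was 0.84, 1.35 and 2.76 in runs B, C and D. Fosb ranged from 0.299 CPM in S2 to 5.23 in S13.

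Ier2 was higher in TAC 29P than in Sham 29P, groups that shared only run A. Its level was 23.1, 24.1, 29.0, 9.38 and 10.99 CPM in Sham Veh, 27.3, 7.26 and 7.51 in Sham 29P, 22.0, 36.2 and 18.8 in TAC Veh, and 19.4 to 43.4 (median 28.2) in TAC 29P. Sham libraries fell into 4 at 7.26 to 10.99 CPM and 4 at 23.1 to 29.0 CPM, and all 9 TAC libraries were at 18.8 or more. The low Sham 29P libraries, S14 and S15, were from runs B and C. In run A, S4 of Sham 29P (27.3 CPM) lay within the TAC 29P range of 19.4 to 43.4. The difference was 1.33 in TAC 29P against Sham 29P (SE 0.41, limma adjusted p = 0.0253, permutation p = 0.0476 by exact enumeration) and 0.49 in TAC Veh against Sham Veh (SE 0.43, limma adjusted p = 0.395). The first was 1.36 without S18 to S20, past the threshold. The 2 differences were not shown to differ from each other (interaction 0.84, SE 0.60, limma adjusted p = 0.998). The interaction was 1.47 without S4, past the threshold. The pooled difference was 0.91 (SE 0.30, limma adjusted p = 0.0178), and 0.66 without S18 to S20, still past the threshold. Within runs it was 0.18 in A (exact permutation p = 0.548), 1.32 in B, 1.33 in C and 1.33 in D.

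Btg2 was at 60.4, 124, 104, 36.7 and 49.1 CPM in Sham Veh, 92.0, 60.7 and 35.5 in Sham 29P, 64.9, 232 and 100 in TAC Veh, and 63.9 to 130 (median 86.7) in TAC 29P. It was highest in S12, a TAC Veh library, and overlapped across all groups. The pooled difference was 0.70 (SE 0.30, limma adjusted p = 0.0566), past the threshold before adjustment. It was not past it without S12 (0.44), S15 (0.52), S19 (0.59), S20 (0.64) or S18 to S20 (0.42). In run A Btg2 was no higher in TAC, at −0.14 (exact permutation p = 0.631), against 1.50 to 1.62 in runs B to D. Zfp36, whose product acts on the mRNAs of other early genes, ranged from 16.1 CPM in S19 to 57.9 in S11, with a pooled difference of 0.32 (SE 0.23, limma adjusted p = 0.253).

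Egr1 and Nr4a1 did not pass the threshold with surgery. Egr1 was at 80.6, 97.9, 82.6, 12.7 and 11.9 CPM in Sham Veh, 88.2, 41.3 and 10.3 in Sham 29P, 27.4, 130 and 18.2 in TAC Veh, and 45.4 to 121 (median 85.0) in TAC 29P. The 4 lowest libraries were all from runs C and D (S15, S16, S19 and S20), and the remaining run D library, S18, was at 108 CPM. The pooled difference was 0.62 (SE 0.55, limma adjusted p = 0.356). Nr4a1 was at 12.9, 31.0, 40.2, 15.3 and 53.5 CPM in Sham Veh, 21.5, 25.3 and 12.6 in Sham 29P, 12.4, 100 and 44.4 in TAC Veh, and 14.05 to 42.9 (median 16.5) in TAC 29P. The TAC Veh libraries spanned 8.10-fold, and the pooled difference was 0.34 (SE 0.40, limma adjusted p = 0.489).

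**Figure D2:**
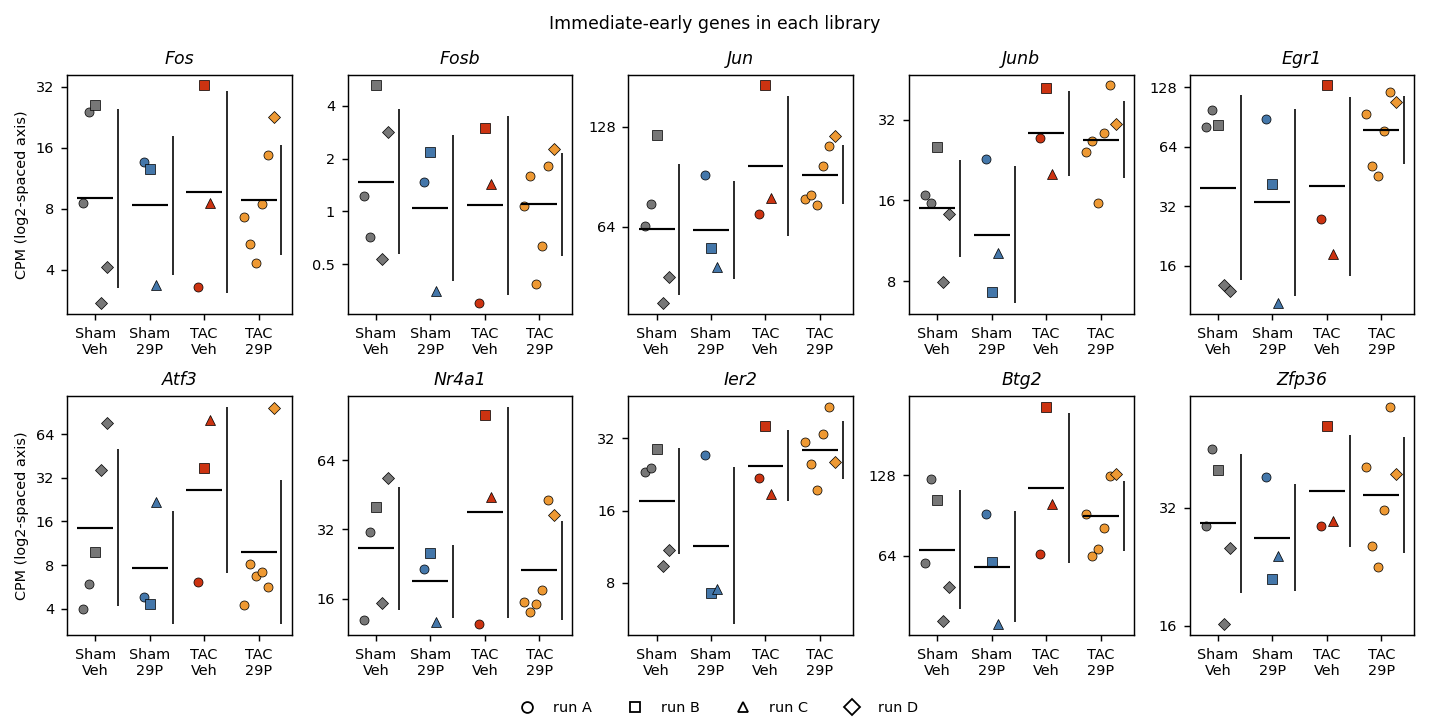
CPM of each of the 10 immediate-early genes in each library (y axes, log2-spaced, one panel per gene) by group (x axes); marker shapes give the run, horizontal lines the mean and vertical lines the SD of log2 CPM in each group (n = 5, 3, 3 and 6 from left to right). Groups overlap in every panel. The mean lines of Jun, Junb, Egr1, Ier2, Btg2 and Zfp36 are higher in both TAC groups than in both Sham groups. Of these, only Junb was past the threshold in Veh mice, and only Junb and Ier2 in 29P mice. For Ier2 in Veh mice the difference was not past the threshold (0.49, SE 0.43). The highest Atf3 values are the diamonds (run D), triangles (run C) and the square (run B) of TAC Veh.

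Counted over the list, 1 of the 10 genes (Junb) was higher in TAC Veh than in Sham Veh at an unadjusted limma p of 0.05, while 37.4% of all genes tested were. In TAC 29P against Sham 29P 2 of the 10 were higher (Junb and Ier2), with 43.5% of all genes. For all TAC against all Sham 4 of the 10 were higher (Junb, Ier2, Jun and Btg2), with 55.4% of all genes, and 3 of the 10 passed adjustment, with 49.4% of all genes. None was lower in any of these comparisons, where 3.48%, 1.96% and 3.94% of all genes were. The share of the 10 genes called was thus below that of all genes in each comparison. At a given difference, a gene with a wider spread is called less often. The median residual standard deviation was 0.79 for the 10 genes and 0.31 for all genes, and its part in these shares was not tested. The median pooled difference was 0.60 for the 10 genes and 0.36 for all genes. Group ranges did not overlap for 29.8% of all genes in TAC Veh against Sham Veh and for 26.1% in TAC 29P against Sham 29P, and for 0 of the 10 genes in either.

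Scaling mattered for these counts. The deposited CPM placed 55.4% of genes higher and 3.94% lower after TAC, whereas with TMM factors 20.7% were higher and 19.6% lower, as the median of all genes moved from 0.36 to 0.01. With TMM, Junb was the only one of the 10 past the threshold in the pooled comparison, at 0.70, while Ier2 was at 0.56, Jun at 0.25 and Btg2 at 0.35. In 29P mice both Junb (0.81) and Ier2 (0.96) were past it with TMM, where the share of all genes is not given. Mitochondrial transcripts made up 29.1% to 38.8% of reads in Sham Veh and 23.6% to 27.9% in TAC Veh. They made up 32.9% to 40.0% in Sham 29P and 25.1% to 29.4% in TAC 29P. S14 of Sham 29P, the lowest library for Junb and Ier2, had the highest share (40.0%) and the lowest depth (14.2 M reads). It also had the most genes at 0 (3538, against a median of 1696 over all libraries).

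Markers of other cell types moved with surgery too. In TAC Veh against Sham Veh, 8 of 8 macrophage markers were higher, with a summed level of 138 to 189 CPM in Sham Veh and 248 to 396 in TAC Veh. Of the endothelial markers 4 of 7 were higher (599 to 1031 and 1023 to 1322 CPM), of the fibroblast markers 5 of 7 (799 to 1312 and 1574 to 2242 CPM), and of the red blood cell genes 5 of 5 (1018 to 2463 and 3082 to 4992 CPM), where 37.4% of all genes were higher. With TMM, where 12.6% of all genes were, the counts were 7 of 8 macrophage, 1 of 7 endothelial, 3 of 7 fibroblast and 5 of 5 red blood cell genes. Without S18 to S20, where 32.3% of all genes were higher, they were 8 of 8, 3 of 7, 6 of 7 and 5 of 5. Cardiomyocyte markers went the other way, with 0 of 7 higher and 3 lower, where 3.48% of all genes were lower. With TMM 6 of 7 were lower, where 13.5% of all genes were. Without S18 to S20 3 of 7 were lower, where 2.92% of all genes were. The part of these cell types in the differences of Junb, Ier2, Jun and Btg2 was not tested.

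**Figure D3:**
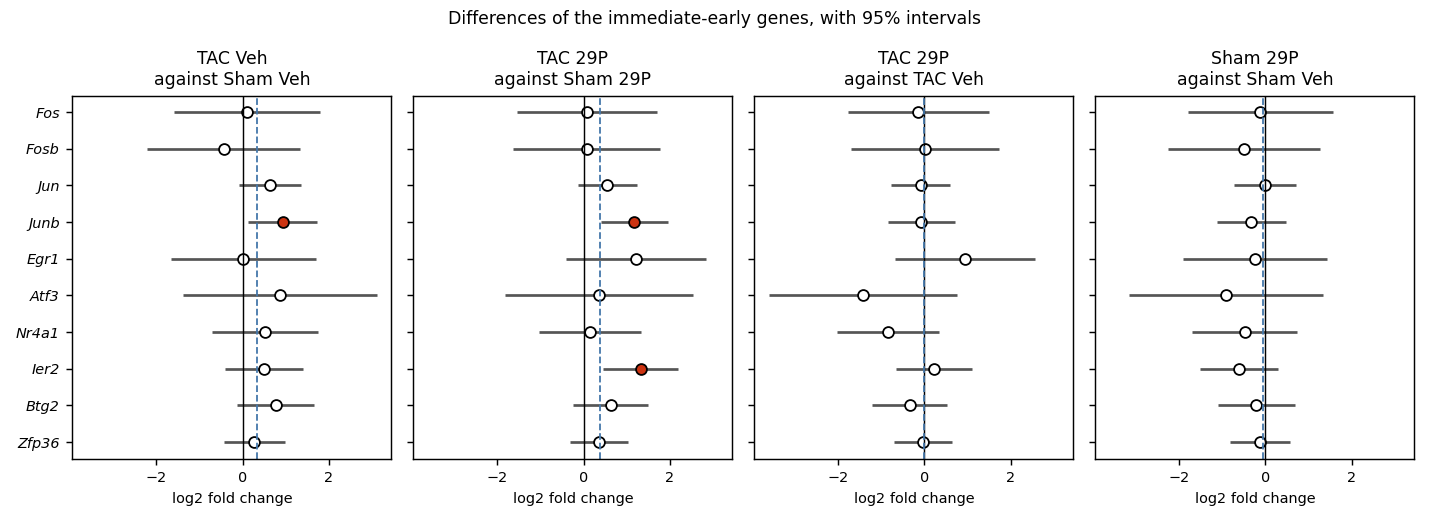
Log2 fold change (x axes) of each of the 10 genes (points) with its 95% interval (bars) in 4 comparisons from 1 limma fit of 17 libraries; filled points are past the unadjusted threshold, the solid line is 0 and the dashed line the median of all genes tested. Junb is filled in both surgery panels and Ier2 in the TAC 29P against Sham 29P panel, and no point is filled in either 29P panel.

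Treatment with 29P did not change any of the 10 genes past the threshold. Within TAC, 0 of the 10 were higher and 0 lower (limma), where 1.05% and 0.931% of all genes were, and all 10 had a limma adjusted p of 1. The largest difference was that of Atf3, at −1.43 with a 95% interval from −3.61 to 0.75. Nr4a1 was at −0.84 (−2.03 to 0.34) and Egr1 at 0.95 (−0.67 to 2.57). Intervals were narrowest for Zfp36 (−0.71 to 0.64), Jun (−0.78 to 0.60) and Junb (−0.86 to 0.70). Exact permutation p-values ran from 0.214 to 1.0, and group ranges overlapped for all 10 genes (1.83% of all genes did not overlap).

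For 3 genes, the difference within TAC turned on single libraries. Atf3 was past the threshold and lower in TAC 29P without S18 (−2.09) and without S2 (−2.49). Of the 3 TAC Veh libraries, S2 was from run A, as were the TAC 29P libraries other than S18, and there Atf3 was at 6.09 CPM in S2 against 4.202 to 8.12 in the TAC 29P libraries. Nr4a1 was lower without S2 (−1.65), and Egr1 was higher without S12 (1.80), both past the threshold. Without S18 to S20, Atf3 was higher in TAC Veh than in Sham Veh (2.11) and its difference of TAC 29P from TAC Veh was −2.09, both past the threshold. With run as a covariate Atf3 was at −0.67 within TAC, not past it.

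Within Sham, 29P was likewise followed by no call among the 10 genes (0 of 10 in limma, with 1.6% of all genes higher and 5.89% lower). All 10 differences were below 0 (9 with TMM), from −0.01 for Jun to −0.92 for Atf3, with a median of −0.29 against −0.06 for all genes. Ier2, at −0.62 (95% interval −1.52 to 0.28), was past the threshold without S4 (−1.25) and without S18 to S20 (−1.15), and S4, at 27.3 CPM, was the only Sham 29P library above 7.51. Exact permutation p-values ran from 0.232 to 1.0, and group ranges overlapped for all 10 genes (2.14% of all genes did not overlap). A test of whether the effect of surgery differed between 29P and Veh mice called 0 of the 10 genes in limma, with 2.84% of all genes called. The largest interaction was that of Egr1, at 1.19 (SE 1.11, limma adjusted p = 0.998). Without S18 to S20 the interaction was past the threshold for Egr1 (2.22), Atf3 (−2.41) and Ier2 (1.40). The share of all genes called in that fit is not given, so these calls cannot be set beside it.

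Atf3, a stress-induced member of the ATF/CREB family, separated the libraries by run. It was at 3.95, 5.91, 9.89, 36.1 and 76.9 CPM in Sham Veh, 4.84, 4.30 and 21.8 in Sham 29P, 6.09, 37.3 and 81.1 in TAC Veh, and 4.202 to 97.1 (median 6.93) in TAC 29P. All 9 libraries of run A lay between 3.95 and 8.12 CPM, and all 5 libraries of runs C and D between 21.8 and 97.1, with run B at 4.30, 9.89 and 37.3. No other of the 10 genes separated runs C and D from run A, and 0.709% of all genes did so upward. In a limma F-test of run beside group, added after the data were seen, the adjusted p of Atf3 was 0.000126, with runs C and D above A by 2.94 and 3.69 on the log2 scale. In that test 3.17% of all genes passed adjustment, and none of the other 9 immediate-early genes did. The next lowest p was that of Egr1 (limma adjusted p = 0.140), which ran the opposite way, at −1.82 and −1.31. As the run was noticed in these values, the test is a description of these libraries.

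Inside each run, Atf3 was higher in TAC than in Sham. The log2 difference was 0.36 in run A (exact permutation p = 0.167), 2.52 in B, 1.89 in C and 0.88 in D, where runs B to D held 1 TAC library each. With run as a covariate, the pooled difference was 1.16 (SE 0.26, limma adjusted p = 0.00261), against 0.61 (SE 0.75, limma adjusted p = 0.502) without it. The covariate left the other calls in the pooled comparison past the threshold: Junb at 1.014, Ier2 at 0.79, Jun at 0.62 and Btg2 at 0.73. In the libraries of runs A and B only, Atf3 was at 0.87 and Ier2 at 0.61, neither past the threshold, and Junb at 0.94, past it.

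Run C had Atf3 at 21.8 and 81.1 CPM with Sln listed at 0 in both libraries and Myl7 at 0.411 CPM and listed at 0. Run D had Atf3 at 36.1 to 97.1 CPM with Sln at 162 to 441 and Myl7 at 335 to 895. The part of atrial tissue in the Atf3 levels was not tested. Acute heat shock genes were high in 1 library, S18, with Hspa1a at 176 and Hspa1b at 183 CPM, against 1.53 to 28.7 and 1.54 to 26.6 in the others. What the runs share was not tested.

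**Figure D4:**
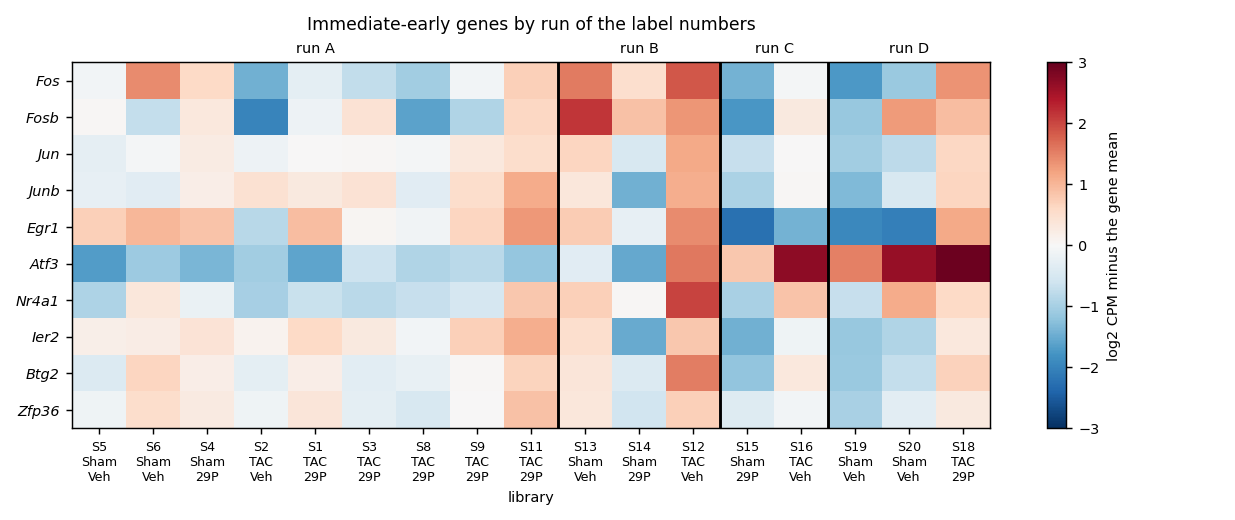
Log2 CPM of the 10 genes (rows) in each library (columns, ordered by run and group) minus the mean of the gene over 17 libraries; red is above and blue below the mean, and black lines separate runs. Atf3 is blue across run A and red across runs C and D, S12 is red for all 10 genes, and S15 and S19 are blue for most genes but not Atf3.

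Most pairs of the other 9 genes varied together between mice of the same group. After the group mean was subtracted from log2 CPM, the 36 pairs among them had a median Pearson r of 0.74 over the 17 libraries, from 0.27 (Nr4a1 and Ier2) to 0.97 (Fos and Btg2), while the median over all pairs of genes tested was 0.13. With TMM factors both medians were 0.74 and −0.0008. Both values of a pair come from the same library and share its total and its depth. Each group held libraries of more than 1 run, and the permutations below shuffled libraries across runs. The part of run in these r values and their p-values was not tested. For Fos and Btg2, r was 0.97 and Spearman's rho 0.96, each with a permutation p of 1e-05, the smallest that 100000 permutations within groups can give (adjusted p over 36 pairs 0.00036 and 0.00018). Without the 2 libraries farthest from the median of Fos, r was 0.95. Junb and Ier2, which both rose with TAC, had r = 0.90 and rho = 0.90 (permutation p = 6e-05 for both, adjusted p = 0.00054 and 0.00058) and r = 0.84 without 2 libraries. Of the 36 pairs, 27 had an adjusted permutation p of 0.05 or less for r, and each of the 9 that did not held Fosb or Nr4a1. All 36 pairs kept a positive r without 2 libraries, between 0.29 and 0.95. No r is given between Atf3 and any single gene, since its levels fall into separate sets.

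The same few libraries stood at the ends of the range for several genes. S12, a TAC Veh library of run B, ranked first or second of 17 for all 9 genes and had the highest Fos, Jun, Egr1, Nr4a1 and Btg2. S11, of TAC 29P, was first for Junb, Ier2 and Zfp36, and S13, of Sham Veh, for Fosb. S19, of Sham Veh, was lowest for Fos, Jun and Zfp36, S15, of Sham 29P, for Egr1 and Btg2, S14, of Sham 29P, for Junb and Ier2, and S2, of TAC Veh, for Fosb and Nr4a1.

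**Figure D5:**
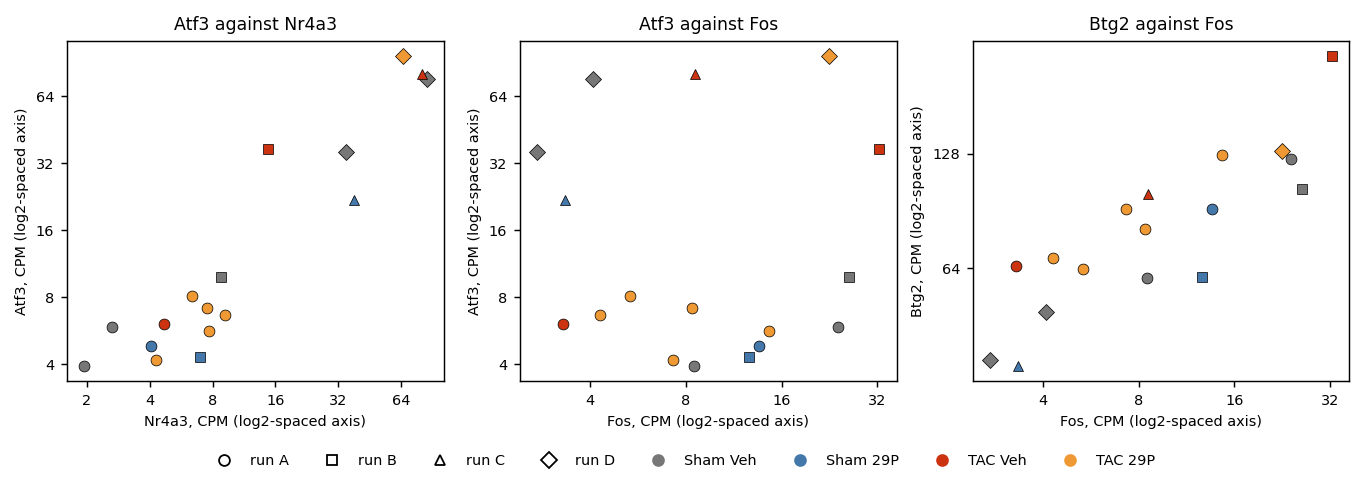
CPM of Atf3 against Nr4a3 (left), Atf3 against Fos (middle) and Btg2 against Fos (right) in 17 libraries, all axes log2-spaced, with marker shape for the run and colour for the group. Atf3 and Nr4a3 are both high in the 5 libraries of runs C and D, Atf3 and Fos show no common order, and Btg2 and Fos rise together.

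Genes with the pattern most like the mean of the 10 were searched among 14044 other genes with a mean of at least 1 CPM, by Pearson r over 17 libraries after group centring. The closest was Apold1 (r = 0.87), an endothelial early-response gene, followed by Dusp1 (0.86), a MAP kinase phosphatase, and Klf2 (0.84), a flow-responsive endothelial factor. Pfkfb1 (0.82), Tspan11 (0.79), Zswim3 (0.77), Gm37691 (0.77), Rhob (0.75), Gk5 (0.75) and Stxbp5 (0.73) completed the first 10. The same search for Atf3 alone, added after the data were seen, ranked Nr4a3 first, an orphan nuclear receptor related to Nr4a1, then Siah2, Noct, Nfil3 and Nfe2l2. Nr4a3 was at 1.93 to 9.21 CPM in run A and at 35.0 to 84.8 in runs C and D, with a limma adjusted p of 2.4e-05 for the run. As Nr4a3 was picked by its likeness to Atf3 in these same libraries, that p is a description and no separate test. The r values with the mean of the 10 genes describe likeness, with no test.

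Relatives of the 10 genes were also counted. In TAC Veh against Sham Veh, 5 of 10 AP-1 relatives were higher and 0 lower, where 37.4% of all genes were higher, and 2 of 10 were higher with TMM, where 12.6% of all genes were higher and 13.5% lower. Without S18 to S20, 7 of the 10 were higher, where 32.3% of all genes were higher and 2.92% lower. These lists were chosen with earlier results of these data known. All genes of these lists named below as higher in TAC Veh than in Sham Veh were also past the threshold without S18 to S20. Mafk, a small MAF protein, rose by 1.007 (limma adjusted p = 0.0143), Fosl2, which encodes the FOS-related protein FRA-2, by 0.998 (adjusted p = 0.0218) and Jund by 0.71 (adjusted p = 0.0862). Fosl2 was at 17.4 to 36.2 CPM in Sham Veh and 31.7 to 60.4 in TAC Veh. With TMM Mafk was at 0.68 and Fosl2 at 0.67, both past the threshold, and Jund at 0.38, not past it.

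Among 12 relatives in the EGR, NR4A and KLF families, 4 were higher and 0 lower, a share below the 37.4% of all genes. With TMM 2 were higher and 1 lower, beside 12.6% and 13.5% of all genes. Without S18 to S20 6 were higher, beside 32.3% of all genes. Egr2 was at 0.421 to 1.52 CPM in Sham Veh and 3.84 to 9.05 in TAC Veh, with no overlap, a rise of 3.00 (SE 0.59, limma adjusted p = 0.00419). Egr3 was at 1.18 to 3.98 CPM in Sham Veh and 5.84 to 12.4 in TAC Veh, a rise of 2.01 (SE 0.43, limma adjusted p = 0.00645). Both encode zinc finger factors related to Egr1, which was at 0.02 (SE 0.80) in the same comparison. Egr2 and Egr3 stayed past the threshold with TMM (2.67 and 1.68), with run as a covariate (3.38 and 2.25) and in all 17 fits that each left out 1 library. Klf6 rose by 0.58 (limma adjusted p = 0.0521), and was at 0.25 with TMM, not past the threshold. Whether Egr2 and Egr3 differed from Egr1 was not tested.

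Of 35 other early-response genes 21 were higher and 0 lower in TAC Veh against Sham Veh, beside 37.4% of all genes higher. With TMM 8 were higher and 2 lower, beside 12.6% and 13.5% of all genes. Without S18 to S20 23 were higher, beside 32.3% of all genes. Plk3, a stress-responsive kinase, rose by 1.50 (limma adjusted p = 0.00517), Cebpd, a leucine zipper factor of acute inflammation, by 1.33 (adjusted p = 0.0594) and Myc by 1.33 (adjusted p = 0.0401). Myc was at 1.005 without S16, not past the threshold. Of 13 MAP kinase phosphatases and inhibitors 4 were higher and 0 lower, a share below the 37.4% of all genes. With TMM 2 were higher, near the 12.6% of all genes. Without S18 to S20 3 were higher, beside 32.3% of all genes. Spry1 (1.13, limma adjusted p = 0.00195) and Spry4 (0.81, adjusted p = 0.0215), inhibitors of receptor tyrosine kinase signalling, and Spred1 (0.66, adjusted p = 0.00624), an inhibitor of RAS signalling, were the largest, and Spred1 was at 0.33 with TMM, not past the threshold.

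Of 18 upstream factors 11 were higher and 0 lower, beside 37.4% of all genes higher. With TMM 6 were higher and 1 lower, beside 12.6% and 13.5% of all genes. Without S18 to S20 11 were higher, beside 32.3% of all genes. Mrtfa, a cofactor of serum response factor, rose by 1.18 (limma adjusted p = 0.0163), Mapk7, which encodes ERK5, by 1.08 (adjusted p = 0.0228) and Rps6ka1, a kinase downstream of ERK, by 1.002 (adjusted p = 0.0255). All 3 stayed past the threshold with TMM (0.85, 0.75 and 0.67). Of 7 acute heat shock genes only Hspb1 was called, beside 37.4% of all genes higher, at 0.57 (limma adjusted p = 0.107), and it was at 0.24 with TMM and 0.32 without S2, neither past the threshold.

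Within TAC, 29P was followed by lower levels of 1 of 10 AP-1 relatives and 4 of 35 other early-response genes, against 0.931% of all genes, with none of either list higher. Fosl2 fell by 0.62, Per1, a clock gene also induced by cyclic AMP, by 1.42, Sik1, a salt-inducible kinase, by 1.02 and Csrnp1, a nuclear protein induced by AXIN1, by 0.81. Per1 was at 48.4 to 74.0 CPM in TAC Veh and 12.6 to 44.6 in TAC 29P, with no overlap, and at 8.62 to 48.4 in Sham Veh. None passed adjustment (limma adjusted p = 1), and with run as a covariate none of the 4 was past the threshold, with Fosl2 at −0.36, Per1 at −0.84, Sik1 at −0.58 and Csrnp1 at −0.68. Without S12 neither Fosl2 (−0.46), Sik1 (−0.72) nor Csrnp1 (−0.65) was past it. All 5 red blood cell genes were also lower in this comparison, and their part in it was not tested. No gene was called in the EGR, NR4A and KLF, phosphatase, upstream or heat shock lists. Without S18 to S20, where 1.23% of all genes were higher and 1.8% lower, 3 of 10 AP-1 relatives, 4 of 12 EGR, NR4A and KLF relatives and 8 of 35 other early-response genes were lower and 1 of the 35 was higher. Fosl2 (−0.79), Per1 (−1.56), Sik1 (−1.19) and Csrnp1 (−0.95) were then past the threshold. In that fit all TAC 29P libraries were from run A, and TAC Veh had 1 library each from runs A, B and C. In run A, S2 of TAC Veh lay within the TAC 29P range for Fosl2 (31.7 against 21.6 to 34.1 CPM). This also held for Sik1 (25.8 against 17.3 to 33.4) and Csrnp1 (10.8 against 6.23 to 12.5). For Per1, S2 lay above that range (48.4 against 12.6 to 44.6 CPM).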

How the data were processed

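Polyadenylated RNA from the left ventricular apex was sequenced from NEBNext Ultra II libraries and aligned by the authors to mm10 with STAR 2.3.7 in Partek. Genes were annotated by the authors with a GENCODE release. The strand setting of the counting is not given in the sources used here. The deposited values are CPM to which the authors added 0.0001. Whole reads could not be recovered, as 78.3% to 81.0% of low values were whole multiples of 1 read within 0.02. The authors removed libraries of low depth and a TAC Veh library that clustered with Sham before deposit, and these were not analysed here. The TAC Veh libraries kept were thus selected partly by their expression. This bears on the differences, p-values and group ranges of TAC Veh, and how far was not tested.

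Genes with at least 0.5 CPM in at least 3 libraries (16218) were kept, and log2 of the deposited CPM was fitted with limma 3.58.1 (R 4.3.3), with 1 mean per group over 17 libraries and a variance trend. The threshold was an unadjusted p of 0.05, the one in the authors' methods, with Benjamini-Hochberg adjustment over all genes beside it. The deposited unit is CPM, so limma stood in for the authors' DESeq2 count model. Nothing in the labels says which libraries come from shared batches, and each is taken as 1 mouse. Exact two-sided permutation tests used mean log2 CPM. Exon lengths came from GENCODE vM21. Gene positions in the matrix are on mm10.

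The 10 genes were all described, and from each list of relatives the 3 largest changes each way among called genes were named. The members, lists and tests were chosen with earlier results of these data known. The fit was checked by simulating TAC Veh against Sham Veh 3 times over 16218 genes, 200 of them changed. It called 4.81% of the unchanged genes, 81.3% at a 2-fold change and 57% at 1.4-fold. The changed genes were drawn from all genes tested, whose median residual standard deviation was 0.31, against 0.79 for the 10 genes. Libraries were simulated without runs. These shares therefore do not hold for the 10 genes. Alternatives were added constants of 0.1 and 1, other filters, TMM and median-of-ratios factors, totals without the 16 mitochondrial-encoded genes, only the groups compared, no variance trend, run as a covariate, adjusted calls and each library left out. The fits without S18 to S20, for the 10 genes and the lists, and with runs A and B only, the run test, the TGACG motif and the search for genes like Atf3 were added after the data were seen. Other steps used scipy 1.17.1, pandas 2.3.3, numpy 2.4.6 and, for plots, matplotlib 3.10.9, in Python 3.11.15.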

Additional observations from a re-analysis of the deposited data

Results flagged for a closer look

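In TAC 29P, library S18 had 97.1 CPM of Atf3, while the other 5 libraries of the group lay between 4.202 and 8.12 CPM, a gap beyond Dixon's 95% limit on the log2 scale. Each of the 10 genes was checked in Sham Veh and TAC 29P, 20 checks in all, of which 1 was past the limit, and chance flags about 1 in 20 groups. S18 was the only TAC 29P library of run D, and it also held the highest Hspa1a (176 CPM) and raised atrial markers (Sln 162 CPM). Their part in the Atf3 level was not tested.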

How the results depend on the processing

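No paired analysis was possible because each library number is carried by 1 library only and none is shared between groups. Counts of the 10 genes past the threshold were compared between the fits. The share of all genes is not set beside each count here. The counts show how the calls moved between fits, and not how the 10 genes stood beside other genes. For TAC Veh against Sham Veh the 1 higher gene became 0 with adjusted p-values, TMM, median-of-ratios factors and totals without mitochondrial-encoded genes. With run as a covariate, in runs A and B only and without S18 to S20 the 1 gene was Atf3 in place of Junb. For TAC 29P against Sham 29P the 2 higher genes became 4 in a fit of only the groups compared (with Jun and Egr1) and 4 with run as a covariate (with Jun and Atf3). For all TAC against all Sham the 4 higher genes became 1 with TMM, 1 with median-of-ratios factors, 1 in runs A and B only, and 2 with totals without mitochondrial-encoded genes and without S18 to S20. Within TAC, 1 gene (Atf3) was lower in runs A and B only and without S18 to S20, against 0, at −1.28 and −2.09. Within Sham, 1 gene (Ier2) was lower without S18 to S20, against 0. The interaction called 3 genes without S18 to S20 (Egr1 at 2.22, Atf3 at −2.41 and Ier2 at 1.40), against 0. Leaving out each of the 17 libraries in turn gave 0 to 4 higher genes for TAC Veh against Sham Veh, 1 to 4 for TAC 29P against Sham 29P, 2 to 4 for all TAC against all Sham, 0 to 1 higher and 0 to 2 lower within TAC, 0 to 1 lower within Sham and 0 to 1 for the interaction. The cause of these changes was not tested. No called difference of the 10 genes changed sign, and of their refitted differences 1659 kept their side of the threshold, 27 passed it newly and 28 no longer did. Fosb was below the filter when 0.5 CPM was asked of every library, so it has no value there. Group sizes of 3 limit what can be seen, and the intervals for Fos, Fosb, Egr1 and Atf3 are wide.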
